A study of Mus musculus with 10 samples.

Results

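The genes described here were 9 genes of the actin cytoskeleton and its surroundings: Vim, Actb, Tmsb4x, Tmsb10, Cfl1, Pfn1, Lcp1, Coro1a and Crip1. They were taken by name, as the 9 rows of these symbols among the 18292 gene symbols listed over the 10 count tables, and all 9 were listed in every library. The names were chosen with earlier results of these data known. The tables held unique molecular identifiers (UMIs) counted per gene in single microglia, the resident macrophages of the brain, from C57BL/6 mice, sorted as live, CD11b high and CD45 intermediate cells. There were 5 groups with 2 libraries each, and each library was 1 replicate. Adult microglia were taken directly from mice of 10 to 15 weeks. Slice microglia came from organotypic brain slices of newborn pups kept in culture for 1 day, 1 week or 3 weeks, in medium with horse serum and PDGF. In vitro microglia were collected from the medium of mixed glial cultures of newborn cortex after 3 weeks, in medium with horse and fetal bovine serum. The labels name no transgene or deletion in any group. Adult and slice microglia were both isolated by homogenization and Percoll density separation, cold except for the Percoll spin, per the study's methods. The in vitro cells came off the culture medium. Age and serum therefore changed together with the culture, as did the way of collection for in vitro cells, and their parts in any difference from adult cannot be told apart. Nothing in the labels says whether the 2 libraries of a group came from separate animals, so the p-values below measure the spread between libraries only.

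Actin monomers assemble into filaments that drive ruffling, phagocytosis and movement. Thymosins (Tmsb4x, Tmsb10) hold monomers in reserve, profilin (Pfn1) feeds them to growing ends, and cofilin (Cfl1) severs and recycles old filaments. L-plastin (Lcp1) bundles filaments in leukocytes, and coronin 1A (Coro1a) is a leukocyte protein at actin-rich cortex and phagosomes. Vimentin (Vim) is an intermediate filament protein, and Crip1 is a small LIM domain protein whose role is less well described. Actb encodes beta-actin. On GRCm38 (GENCODE vM21), where all are protein-coding genes, they lie apart on 9 chromosomes, with Vim at chr2:13573927-13582826, Actb at chr5:142903115-142906754, Tmsb4x at chrX:167207093-167209315, Tmsb10 at chr6:72957347-72958748, Cfl1 at chr19:5490455-5495201, Pfn1 at chr11:70651850-70654644, Lcp1 at chr14:75131101-75230842, Coro1a at chr7:126699773-126707787, Crip1 at chr12:113146316-113153879.

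The promoters of 4 members are printed because these genes bracket the pattern described below: Vim and Crip1 were close to absent in adult cells, and Tmsb4x and Cfl1 had the most similar profiles among the members. The sequences are from RefSeq, build GRCm38.p6, 5′ to 3′ on the gene's strand, from 250 bases before to 50 bases after the annotated start. Capitals mark matches, on either strand, to TATAAA (the TATA box), to CCAAT (the CCAAT box), to GGGCGG (the GC box), to TGANTCA (the AP-1 element) or to the CArG box, the element bound by serum response factor.
Vim, chr2:13574061-13574360, plus strand: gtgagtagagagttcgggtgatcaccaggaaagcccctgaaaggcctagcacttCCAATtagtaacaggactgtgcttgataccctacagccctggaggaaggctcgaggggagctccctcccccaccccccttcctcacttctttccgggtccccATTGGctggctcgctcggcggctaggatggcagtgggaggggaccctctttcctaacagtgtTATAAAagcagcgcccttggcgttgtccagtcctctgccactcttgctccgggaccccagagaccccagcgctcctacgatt
Crip1, chr12:113151762-113152061, plus strand: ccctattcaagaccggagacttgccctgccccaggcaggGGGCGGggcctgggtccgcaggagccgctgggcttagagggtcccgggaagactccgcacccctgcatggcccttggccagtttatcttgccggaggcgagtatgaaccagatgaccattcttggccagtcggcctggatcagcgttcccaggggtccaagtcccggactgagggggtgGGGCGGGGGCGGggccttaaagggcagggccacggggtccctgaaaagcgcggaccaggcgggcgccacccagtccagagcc
Tmsb4x, chrX:167209169-167209468, minus strand: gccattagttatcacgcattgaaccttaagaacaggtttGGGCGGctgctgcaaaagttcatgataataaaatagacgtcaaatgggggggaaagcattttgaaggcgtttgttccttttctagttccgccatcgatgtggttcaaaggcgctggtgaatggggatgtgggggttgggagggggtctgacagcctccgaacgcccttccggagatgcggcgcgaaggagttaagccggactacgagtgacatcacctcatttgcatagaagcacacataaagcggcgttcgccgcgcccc
Cfl1, chr19:5490205-5490504, plus strand: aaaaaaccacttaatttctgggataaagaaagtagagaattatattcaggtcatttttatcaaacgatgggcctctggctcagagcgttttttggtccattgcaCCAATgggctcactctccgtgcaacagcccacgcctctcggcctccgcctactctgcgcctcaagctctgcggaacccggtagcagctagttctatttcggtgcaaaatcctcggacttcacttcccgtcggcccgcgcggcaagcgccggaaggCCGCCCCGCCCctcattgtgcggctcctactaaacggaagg
Over 12 promoters listed for 8 members (Actb had none in the table), TATAAA was found in 1, that of Vim, against 13.6% of all 32851 promoters. CCAAT was found in 2 and GGGCGG in 10, against 37.4% and 35.7% of all promoters. Overlapping matches were counted separately. No match to the CArG box (1.63% of all promoters) or TGANTCA (7.81%) stood in the 12 windows. A match is a run of letters, not a site shown to be bound.

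After limits on mitochondrial share, genes and UMIs, 19059 cells of 19637 barcodes were kept, 61 to 3799 in a library, with 385373 to 39689540 UMIs in all and a median of 1858 to 13966 UMIs per cell. The in vitro libraries were the deepest per cell and the adult libraries the shallowest. The 2 slice 1 week libraries held 148 and 61 cells. Every library carried all 12 microglial marker genes, but their summed level was 55369 to 56703 CPM (counts scaled to a common library total) in adult, 24102 to 33481 in slice 3 weeks, 17868 to 22059 in slice 1 week, 16305 to 18723 in vitro and 9598 to 10841 in slice 1 day. In the slice 1 day libraries, 54 of 518 and 105 of 1014 cells had over 5% of their UMIs from neutrophil genes such as S100a8 and S100a9, and another 48 and 80 had 2 or more UMIs of Ccr2 and Plac8, which mark monocytes. In slice 1 week these were 23 and 2 of 148 cells in replicate 1 and 1 and 0 of 61 in replicate 2. The summed level of the 9 neutrophil markers was 40262 CPM in slice 1 week replicate 1 and 1033 CPM in replicate 2. It was 7676 to 22429 CPM in slice 1 day and at most 211 CPM in the adult, in vitro and slice 3 weeks libraries. Border macrophage markers were at 4295 to 4470 CPM in vitro and at most 452 CPM elsewhere, with Ms4a7, Pf4 and Mrc1 in the list. In all, 218 barcode sequences occurred in 2 or more libraries, at most 21 in a pair. Levels below are CPM of the cells of a library added up and scaled with TMM factors. They are 3′ counts and were compared between libraries, not between genes. Near-identical copies exist for several members (Actb and Actg1, and processed pseudogenes of Tmsb4x, Tmsb10, Cfl1 and Pfn1), and how shared reads were split is uncertain.

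Vim was almost absent in adult microglia and present in every cultured group. It was at 1.6 and 1.7 CPM in the 2 adult libraries, 384 and 330 CPM in slice 1 day, 265 and 194 CPM in slice 1 week, 102 and 118 CPM in slice 3 weeks, and 244 and 502 CPM in vitro. No cultured library came near the adult level. The log2 fold change against adult was 7.76 ± 0.41 (SE, n = 2 libraries a group) in slice 1 day, 7.14 ± 0.40 in slice 1 week, 6.07 ± 0.39 in slice 3 weeks and 7.82 ± 0.41 in vitro, with adjusted p-values of 7.3e-07, 2.4e-06, 3.2e-06 and 2.1e-07 (edgeR quasi-likelihood test, Benjamini-Hochberg over 12157 genes). Adult counts of Vim were low, 22 UMIs in adult replicate 1, so the size of these folds is less certain than their direction. Vim fell from slice 1 day to slice 3 weeks by 1.69 ± 0.29 on the log2 scale (adjusted p = 0.0021, edgeR), and was higher in vitro than in slice 3 weeks by 1.76 ± 0.29 (adjusted p = 0.0011, edgeR). Without cells with a cycling UMI, the latter difference was 1.14 and was still called. This setting, also used below, dropped every cell with any UMI of the cell cycle genes at full depth. It kept 381 of 2417 and 313 of 2682 in vitro cells. Deeper cells are more likely to carry such a UMI, so it cannot tell depth from cycling.

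Crip1 had the second largest rise of the members against adult. Its level was 8.5 and 9.7 CPM in adult, 106 and 111 CPM in slice 1 day, 236 and 266 CPM in slice 1 week, 124 and 113 CPM in slice 3 weeks, and 297 and 554 CPM in vitro. The slice 1 day and slice 3 weeks libraries were close together and the in vitro libraries were the highest. Against adult, the log2 fold change was 3.58 ± 0.28 in slice 1 day, 4.79 ± 0.29 in slice 1 week, 3.71 ± 0.28 in slice 3 weeks and 5.56 ± 0.30 in vitro, all called. The difference between slice 3 weeks and slice 1 day was 0.13 ± 0.24 and was not called (adjusted p = 0.73, edgeR).

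At 1500 UMIs per cell, Vim had a UMI in 0.227% (95% exact binomial interval 0.0981 to 0.447) and 0.187% of adult cells, 31.5% and 32.4% of slice 1 day cells, 25.5% and 19.6% of slice 1 week cells, 11.7% and 11.8% of slice 3 weeks cells, and 18.4% and 30.5% of in vitro cells. Crip1 had a UMI in 1.51% and 1.498% of adult cells and 10.7% to 41.4% of cells in the cultured libraries. Gfap, an astrocyte gene that microglia should lack, had a UMI in 0.0284% to 0.709% of cells in 9 libraries and in 7.14% of cells in slice 1 week replicate 2. It is 1 of 7 astrocyte markers, and their summed level was highest in adult. That sum was 148 to 154 CPM in adult, 7.23 to 15.0 in slice 1 day and 15.7 to 25.9 in slice 1 week. It was 33.6 to 33.8 CPM in slice 3 weeks and 6.48 to 8.54 in vitro. Gfap alone is therefore no measure of free RNA, whose part was not tested. Without thinning, Vim had a UMI in 0.526% and 0.340% of adult cells and 28.2% to 73.3% of cultured cells. Intervals cover counting error only.

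**Figure D1:**
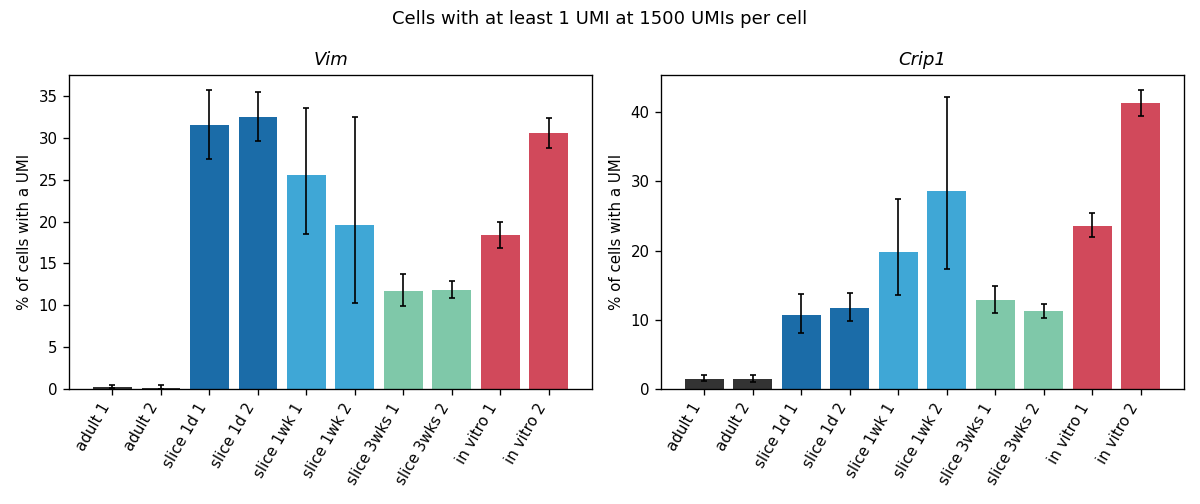
Share of cells with at least 1 UMI of Vim (left) and Crip1 (right) in each library after thinning to 1500 UMIs per cell, in percent; bars are libraries coloured by group and lines are exact 95% binomial intervals. Both adult libraries sit below 2% for both genes, and the wide intervals of slice 1 week reflect its few cells.

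The thymosins and cofilin rose together in culture. Tmsb4x was at 12240.4 and 9952 CPM in adult, 29811 and 32804 in slice 1 day, 26103 and 27236 in slice 1 week, 22699.9 and 16054 in slice 3 weeks, and 27191 and 28099 in vitro. Cfl1 was at 894 and 929 CPM in adult, 2721 and 2918 in slice 1 day, 2167 and 2216 in slice 1 week, 1877 and 1328 in slice 3 weeks, and 2301 and 2470.1 in vitro. For both genes all cultured libraries lay above both adult libraries, and slice 3 weeks was the lowest cultured group. The log2 fold change of Tmsb4x against adult ran from 0.80 ± 0.18 in slice 3 weeks to 1.496 ± 0.19 in slice 1 day, and that of Cfl1 from 0.81 ± 0.17 to 1.63 ± 0.17, all called. Without slice_3wks replicate 1, both were at 0.57 and 0.58 in slice 3 weeks and neither was called there. With only the 2 groups compared, or without cells with markers of other types, Tmsb4x was not called in slice 3 weeks either. Tmsb10 was at 208 and 164 CPM in adult, 734 and 664 in slice 1 day, 894 and 391 in slice 1 week, 334 and 304 in slice 3 weeks, and 569 and 688 in vitro. Its 2 slice 1 week libraries differed by more than any other pair. Tmsb10 was called against adult in slice 1 day (1.91 ± 0.31), slice 1 week (1.80 ± 0.31) and in vitro (1.76 ± 0.31), with a slice 1 week value of 1.10 without slice_1wk replicate 1 and up to 2.23 without another library, but not in slice 3 weeks (0.78 ± 0.30, adjusted p = 0.061, edgeR), where 8 of 18 alternatives did call it higher.

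Actb changed less. It was at 4024 and 4909 CPM in adult, 8395 and 8184 in slice 1 day, 7190.0 and 10245 in slice 1 week, 6319 and 4269 in slice 3 weeks, and 7315 and 8280.0 in vitro. The slice 3 weeks libraries overlapped the adult ones. It was called higher than adult in slice 1 day (0.89 ± 0.22), slice 1 week (0.96 ± 0.22) and in vitro (0.80 ± 0.22), and at slice 3 weeks its difference was 0.25 ± 0.22 (adjusted p = 0.41, edgeR). Without adult replicate 1 the calls in vitro (0.76) and in slice 1 week were lost, and the latter also without slice_1wk replicate 2 (0.65). The in vitro call was also lost with library size alone (0.49) and without cells with a cycling UMI (0.65).

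Pfn1 was the member with the widest swing between slice ages. It was at 476 and 959 CPM in adult, 2611 and 2657 in slice 1 day, 1795 and 1957 in slice 1 week, 537 and 327 in slice 3 weeks, and 1261 and 1004 in vitro. The adult libraries differed by more than those of any other group, and the slice 3 weeks libraries overlapped them. Pfn1 was 2.61 ± 0.33 lower in slice 3 weeks than in slice 1 day on the log2 scale (adjusted p = 4.7e-04, edgeR). It was higher than adult by 1.88 ± 0.32 in slice 1 day and 1.39 ± 0.31 in slice 1 week. The differences in vitro (0.66 ± 0.31, adjusted p = 0.092, edgeR) and in slice 3 weeks (-0.73 ± 0.31, adjusted p = 0.084, edgeR) did not pass. These values depended on the setting and on the library left out. With no filter on low counts both differences were called, higher in vitro and lower in slice 3 weeks. The slice 3 weeks difference was also called with library size alone, and the in vitro one with UMIs per cell. In vitro the difference was 1.25 without adult replicate 2, where it was called, and 0.34 without adult replicate 1. In slice 3 weeks it was -0.14 without adult replicate 2 and was called without adult replicate 1 or slice_3wks replicate 1 (-1.09 each). In slice 1 day it ran from 1.501 to 2.47 and in slice 1 week from 1.01 to 1.96, called each time.

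The leukocyte genes Coro1a and Lcp1 followed other orders. Coro1a was at 502 and 418 CPM in adult, 875 and 923 in slice 1 day, 789.6 and 768 in slice 1 week, 461 and 310.0 in slice 3 weeks, and 378 and 401 in vitro. It was called higher than adult in slice 1 day (0.97 ± 0.19) and slice 1 week (0.76 ± 0.19), while in slice 3 weeks and in vitro the differences were -0.26 ± 0.19 and -0.24 ± 0.19. The slice 1 week call was lost without either slice 1 week library or without adult replicate 2, with values of 0.62 to 0.94 when 1 library was left out. It was also lost with library size alone (0.56) and without cells with a cycling UMI (0.61). Lcp1 was at 289 and 323 CPM in adult, 328 and 324 in slice 1 day, 342 and 248 in slice 1 week, 238 and 202 in slice 3 weeks, and 506 and 500.0 in vitro. It was called against adult only in vitro (0.72 ± 0.17, adjusted p = 0.0042, edgeR), and in vitro exceeded slice 3 weeks by 1.19 ± 0.17. Scaled by library size without TMM factors, the in vitro call was lost (0.41, adjusted p = 0.052, edgeR) and Lcp1 was called lower in slice 3 weeks (-0.68). Counted as UMIs per cell with no scaling for depth, Coro1a in vitro turned to 1.90 above adult, and Coro1a, Lcp1 and Pfn1 in slice 3 weeks to 0.84, 0.65 and 0.52, where the median of all genes moved to 2.04 and 1.05.

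**Figure D2:**
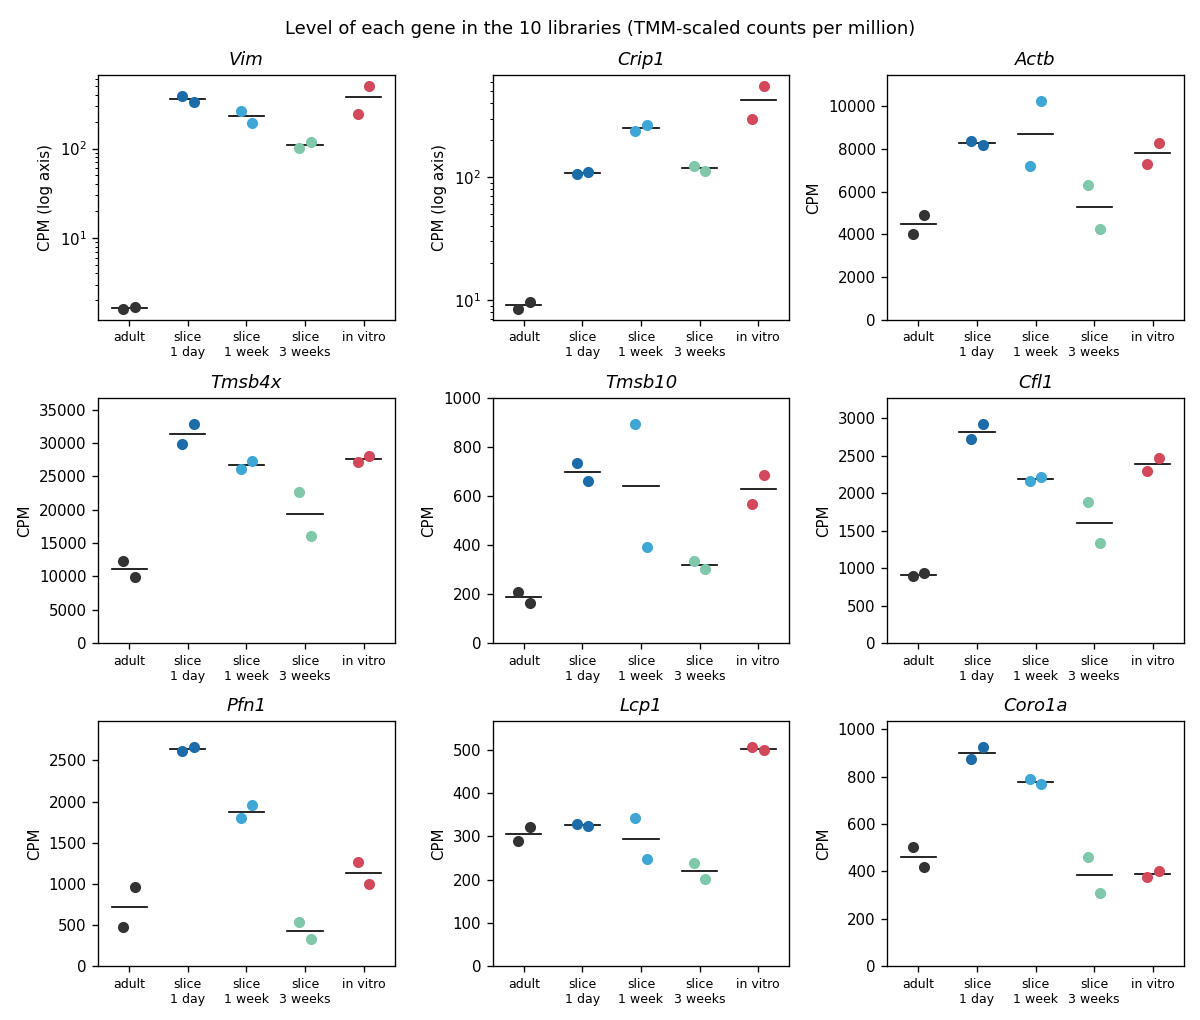
Level of each gene in the 10 libraries in TMM-scaled CPM; points are libraries, bars are group means, and the axes of Vim and Crip1 are logarithmic while the others start at 0. All 8 cultured libraries lie above the adult libraries for Vim, Crip1, Tmsb4x, Tmsb10 and Cfl1.

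The cells rich in neutrophil or monocyte genes carried more Lcp1, Coro1a and Pfn1 than the rest of the slice 1 day libraries. In slice 1 day, Lcp1 was at 1389 and 913 CPM in cells with over 5% neutrophil UMIs, 669.8 and 544 CPM in cells with Ccr2 and Plac8, and 262 and 260.2 CPM in the other cells. Coro1a was at 2283 and 1679.8 CPM, 1981 and 1602 CPM, and 743 and 818 CPM in the same classes. Pfn1 was at 3396 and 3041 CPM, 3965 and 3089 CPM, and 2565 and 2641 CPM. The neutrophil-rich cells had less Tmsb4x (19925 and 18809 CPM against 31293 and 34751 CPM) and less Crip1 (13.8 and 15.0 CPM against 92.0 and 104 CPM), while Crip1 was at 338 and 324 CPM in the cells with Ccr2 and Plac8. Vim in the other cells was at 423 and 324 CPM. These classes were cut at limits set after the data were seen, with 13 and 5 cells between 2% and 5% neutrophil UMIs, and are values with no test. Without both classes, 8 members were called against adult in slice 1 day and 8 in slice 1 week. Of all 11963 genes tested, 3124 were then called higher and 2865 lower in slice 1 day, and 1804 and 1400 in slice 1 week. The Coro1a change in slice 1 day was then 0.77 (adjusted p = 0.0061, edgeR) and that of Lcp1 was -0.22 (adjusted p = 0.18, edgeR). Neutrophil RNA outside such cells was not removed by this, and its part was not tested.

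**Figure D3:**
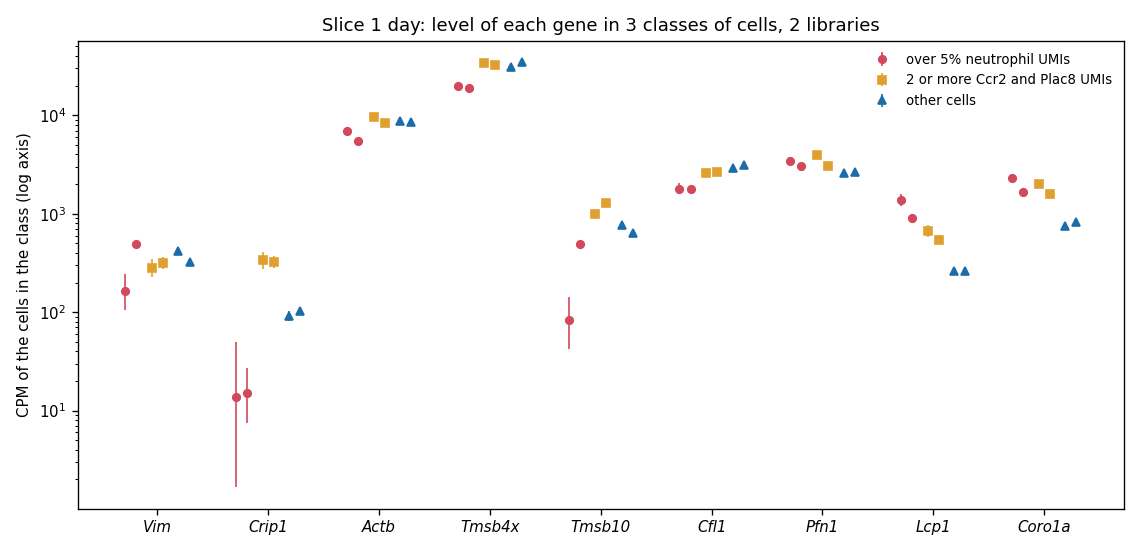
Level of each gene (CPM, log axis) in 3 classes of slice 1 day cells, with 1 point per library and exact 95% Poisson intervals for counting error. Lcp1 and Coro1a are highest in the neutrophil-rich cells, and Crip1 is lowest there.

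The members were chosen with earlier results of these data known, so the counts here describe the list and are no independent support. Counted over the list, 7 of 9 members were called higher in vitro than in adult and 0 lower, where 22.4% of all tested genes were called higher and 28.5% lower. In slice 1 day, 8 were called higher and 0 lower, against 24.9% and 25.3% of all genes. In slice 1 week, 8 were called higher and 0 lower, against 15.0% and 13.6%. In slice 3 weeks, 4 were called higher (Vim, Crip1, Tmsb4x and Cfl1) and 0 lower, against 17.9% and 17.5%. In vitro against slice 3 weeks, 5 were called higher (Vim, Crip1, Tmsb10, Pfn1 and Lcp1) and 0 lower, against 13.3% and 19.9%. From slice 1 day to slice 3 weeks, 0 were called higher and 7 lower, against 13.9% and 12.8%. The 7 lower ones were Vim, Pfn1, Coro1a, Tmsb10, Cfl1 (-0.82 ± 0.17), Tmsb4x (-0.69 ± 0.18) and Actb (-0.65 ± 0.22). Lcp1 (-0.57 ± 0.17) fell just short of the fold limit and was called lower in 6 of 17 alternatives. Its values ran from -1.57 without cells with a cycling UMI to -0.19 without neutrophil-rich and Ccr2 or Plac8 cells. The call of Actb was the least stable, lost in 11 of 17 alternatives, with values of -1.07 to -0.38. That of Tmsb4x was lost in 5, that of Cfl1 in 4 and that of Tmsb10 in 3. Without 1 slice 1 day or slice 3 weeks library 3 to 8 members passed in that comparison, and Vim, Pfn1 and Coro1a were called under every alternative run. The median log2 fold change of the members was 1.32 in vitro, 1.63 in slice 1 day, 1.27 in slice 1 week and 0.78 in slice 3 weeks against adult, where the median of all genes was between -0.11 and -0.03. The 4 comparisons with adult share the same adult libraries. Only the slice 3 weeks and adult groups have libraries under both study labels. Within those labels, Vim differed between them by 5.99 and 6.14 on the log2 scale, Tmsb4x by 0.89 and 0.69, Cfl1 by 1.07 and 0.52, Actb by 0.65 and -0.20, and Pfn1 by 0.17 and -1.55. With the study label as a covariate, Tmsb4x (0.73) and Cfl1 (0.70) were also called higher in vitro than in slice 3 weeks. Calls in that comparison varied with the setting: Cfl1 was called in 9 of 17 alternatives and Tmsb4x and Actb in 5 each, and the call of Tmsb10 was lost in 3. From slice 1 day to slice 3 weeks, Lcp1 was then called lower (-0.59) and Actb was not called (-0.73, adjusted p = 0.052, edgeR). The calls of members against adult did not change.

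**Figure D4:**
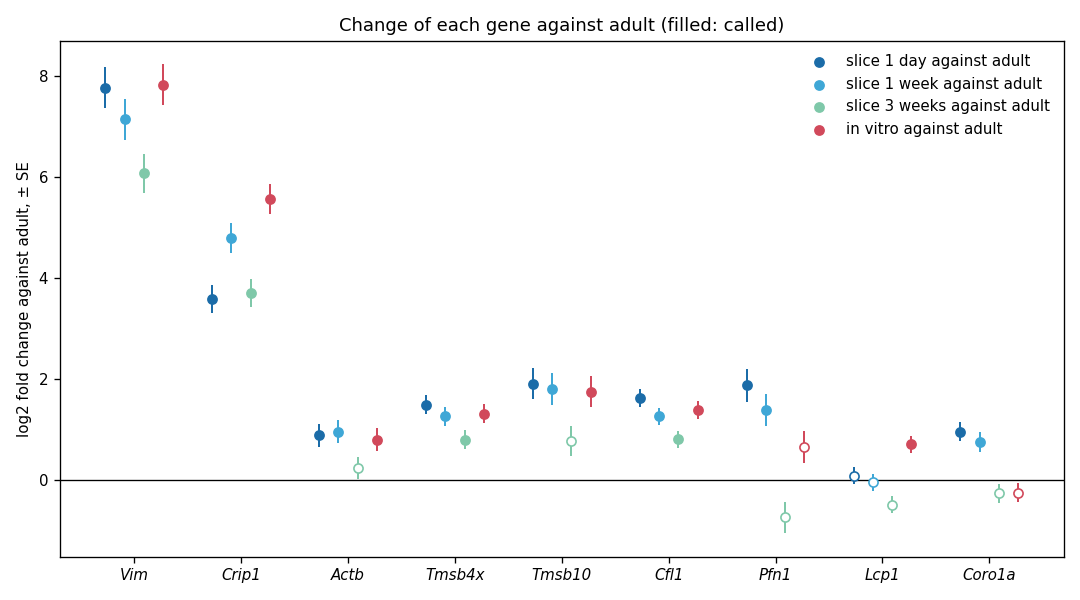
Log2 fold change of each gene against adult in 4 comparisons, with SE, from 2 libraries a group; filled points were called at an adjusted p under 0.05 and over 1.5-fold. Vim and Crip1 lie above 3 in all 4 comparisons, and Lcp1 is called only in vitro.

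The wider cytoskeleton was described by 13 lists of 140 genes, members included, of which 130 were tested. These lists too were chosen with earlier results of these data known. Against adult, 63 rose and 24 fell in vitro, 66 and 16 in slice 1 day, 59 and 16 in slice 1 week, and 41 and 20 in slice 3 weeks. The rises were 48.5%, 50.8%, 45.4% and 31.5% of the tested list genes, against 22.4%, 24.9%, 15.0% and 17.9% of all genes. The falls were 18.5%, 12.3%, 12.3% and 15.4%, against 28.5%, 25.3%, 13.6% and 17.5% of all genes, so in slice 1 week and slice 3 weeks they were near the share of all genes. In the Arp2/3 complex, which starts branched filaments, 6 of 9 genes rose in vitro, 5 in slice 1 day, 5 in slice 1 week and 3 in slice 3 weeks, and 0 fell. Arpc1b, Arpc3 and Arpc5 were called in all 4 comparisons. Of the 16 nucleation promoters and formins, 8, 6, 5 and 5 were lower in the same order, 2, 1, 1 and 1 were higher, and 6, 9, 10 and 10 did not pass. The lower ones were 50%, 37.5%, 31.25% and 31.25% of the list, above the shares of all genes called lower. Abi3, a subunit of the WAVE regulatory complex, fell from 850.0 CPM in adult to 90.6 CPM in vitro, a log2 change of -3.23 ± 0.20. Of the intermediate filament genes tested, 6 of 7 rose in vitro, 7 in slice 1 day, 6 in slice 1 week and 6 in slice 3 weeks. The slice counts include Gfap, the astrocyte gene named above, whose source in these libraries was not tested. Lmna, which encodes lamin A and C of the nuclear envelope, rose from 3.31 CPM to 70.9 CPM in vitro, and Nes from 0.879 to 1.80 CPM in adult to 66.3 to 71.2 CPM in slice 1 day. Gfap was called in the 3 slice groups, at 0.786 to 17.9 CPM.

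Further lists are given as genes called higher and lower against adult in vitro, in slice 1 day, in slice 1 week and in slice 3 weeks, and stand beside the shares of all genes just given. Bundling and crosslinking proteins (11 tested) had 8 and 3, 7 and 2, 7 and 2, then 4 and 3. Myosins and tropomyosins (12 tested) had 8 and 0, 8 and 0, 5 and 0, then 5 and 0. Severing and turnover factors (18 tested) had 11 and 3, 7 and 2, 8 and 2, then 5 and 1. Monomer binding proteins (7 tested) had 3 and 1, 5 and 1, 5 and 0, then 2 and 1. Capping proteins (6 tested) had 2 and 1, 3 and 0, 3 and 1, then 1 and 1. Actin isoforms (3 tested) had 2 and 0, 3 and 0, 3 and 0, then 0 and 0. Membrane linkers (7 tested) had 3 and 1, 3 and 0, 2 and 0, then 3 and 0. LIM proteins (9 tested) had 2 and 0, 4 and 1, 2 and 1, then 2 and 3. Tubulins with Stmn1 (11 tested) had 6 and 2, 8 and 0, 7 and 1, then 7 and 2. Some of these counts were at or below the shares of all genes, such as the 2 LIM proteins higher in vitro (22.2% of 9) and the 3 severing factors lower there (16.7% of 18). The unconventional myosin gene Myo5a rose by 5.54 ± 0.38 in vitro and 4.24 ± 0.38 in slice 3 weeks on the log2 scale. The tubulin gene Tubb6 rose by 4.15 ± 0.23 in slice 1 day and was lower in slice 3 weeks than in slice 1 day (-1.74 ± 0.21). Calponin 2 (Cnn2), an actin-binding protein, was lower than adult in slice 3 weeks (-2.92 ± 0.35), lower in slice 3 weeks than in slice 1 day (-4.66 ± 0.35) and higher in vitro than in slice 3 weeks (4.48 ± 0.34). Tagln2 was also higher in vitro than in slice 3 weeks (1.68 ± 0.21), and Myo1e was lower (-2.04 ± 0.35). The paxillin relative Lpxn was lower than adult in slice 1 week (-1.36 ± 0.26). From slice 1 day to slice 3 weeks, the cofilin phosphatase gene Ssh2 rose (1.25 ± 0.21) and Flna fell (-1.64 ± 0.27).

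Among the single genes of these lists, Gsn, which encodes the filament severing protein gelsolin, was at 3.48 to 3.59 CPM in adult and 67.5 to 392 CPM in culture, with log2 changes from 4.43 ± 0.24 in slice 3 weeks to 6.70 ± 0.26 in vitro. Fscn1, which encodes the bundling protein fascin, went the other way. It was at 693 to 919 CPM in adult, 51.1 to 64.2 in slice 1 day, 25.6 to 43.5 in slice 1 week, 185 to 212 in slice 3 weeks and 0.365 to 0.835 in vitro, a log2 change of -10.39 ± 0.40 in vitro. Actg1, the gamma-actin gene, rose by 1.18 in vitro, 1.64 in slice 1 day and 1.09 in slice 1 week and was not called in slice 3 weeks (0.19, adjusted p = 0.47, edgeR). Csrp1, a LIM protein, was at 1.55 to 1.68 CPM in adult and 23.0 to 61.0 CPM in culture. Coro1c, unlike Coro1a, was called higher in all 4 cultured groups, with log2 changes of 1.60 to 2.18.

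Over the 10 libraries, Tmsb4x and Cfl1 had the most similar profiles among the members (Pearson r = 0.99 of log2 CPM) and Lcp1 and Coro1a the least (r = -0.03). These r values describe 10 libraries in 5 groups and share group differences. The genes most like Vim, among 3917 genes, were Plp2, Psmb1 and Lgals3 (r = 0.99 each), and those most like Coro1a were Emd (0.97), the neutrophil marker S100a9 (0.95) and Psme2b (0.95). For Crip1 they were Cenpa (0.99), Sh3bgrl (0.99), Ccnb2 (0.98), of which Cenpa and Ccnb2 serve cell division. For Actb they were Nras (0.95), Wdr1 (0.95), Svbp (0.95), where Wdr1 aids cofilin. For Tmsb4x they were Atp5a1 (0.99), Cfl1 (0.99), AB124611 (0.98), and for Cfl1 Atp5f1 (0.99), Flna (0.99), Tmsb4x (0.99), where Flna encodes the crosslinker filamin A. For Tmsb10 they were S100a6 (0.98), Msrb1 (0.98), Csnk2b (0.97), for Pfn1 Igsf6 (0.95), Lrrfip1 (0.93), Larp7 (0.93) and for Lcp1 they included Rbfa (0.95) and Prr13 (0.95). Between cells within a library, correlations were weaker. The Spearman correlation of Actb and Tmsb4x had a median of 0.27 over 9 libraries with at least 100 thinned cells (0.059 to 0.44). That of Lcp1 and Coro1a was 0.23 to 0.30 in slice 1 day and slice 1 week replicate 1, the libraries with neutrophil-rich cells, and -0.005 to 0.053 in the other 6.

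Last, cells with 2 or more UMIs of cell cycle genes were compared with cells that had none, within 8 libraries. In this comparison 1 of 9 members was called higher and 0 lower, where 4.94% of 5746 genes were called higher and 2.28% lower. Vim was higher by 0.69 ± 0.17 on the log2 scale (adjusted p = 0.0045, edgeR), in 6 of 8 libraries. One of these 6 was adult replicate 1, near the floor at 18.6 against 1.17 CPM, with 68 cycling cells. Lower values in cycling cells were found in adult replicate 2 (0 against 1.24 CPM) and slice 1 day replicate 2 (247 against 373 CPM). In vitro it was at 546 and 848 CPM in cycling cells and 182 and 326 CPM in the others. Without the in vitro libraries the difference was 0.07 (adjusted p = 0.86, edgeR) and 0 members passed. The other 8 members differed by -0.17 to 0.24 with adjusted p-values of 0.20 to 0.98 (edgeR).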

How the data were processed

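The authors aligned and counted the 10x 3′ v2 libraries with Cell Ranger 1.3.0 on mm10, per the submitters' processing notes and the study's methods, and deposited tables of raw UMI counts per gene and barcode. Here, a barcode was kept with at most 5% of its UMIs from mitochondrial genes, at least 400 genes and at most 30000 UMIs, which removed 578 of 19637, and repeated symbols were added up. No doublet caller was run. Counts of the cells of a library were summed and fitted with edgeR 4.0.16 (TMM factors, filterByExpr with a minimum count of 10, quasi-likelihood test, 1 fit of 5 groups). Genes were called at an adjusted p under 0.05 (Benjamini-Hochberg over all genes) and over 1.5-fold. The SE was derived from the test statistic. DESeq2 1.42.0 served as an alternative. Cells were thinned to 1500 UMIs for shares, correlations and the cell cycle comparison, which left out 1150 shallower cells. The cell cycle class needed at least 2 UMIs over the list and at least 20 cells per class in a library, with the library as a block. The edgeR script was tested on simulated data. The members and gene lists were chosen with earlier results of these data known. Named genes were the members, a fixed set of relatives, the 3 largest called rises and falls of the cytoskeleton lists per comparison (mean log2 CPM of 5 or more), and the 3 genes most like each member. The limits for neutrophil-rich cells and for cells with Ccr2 and Plac8 were added after the data were seen. The results of 1 gene list and of some genes of the naming rule are not reported here.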

Additional observations from a re-analysis of the deposited data

Results flagged for a closer look

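Of the members, 3 had values on opposite sides of adult in 2 cultured groups, with the difference between those groups called by edgeR. Coro1a was 0.97 above adult in slice 1 day and 0.26 below it in slice 3 weeks on the log2 scale (-0.26), and slice 3 weeks differed from slice 1 day by -1.22 (adjusted p = 0.0014, edgeR). Pfn1 was 1.88 above adult in slice 1 day and at -0.73 in slice 3 weeks, a difference of -2.61 (adjusted p = 4.7e-04, edgeR). Pfn1 also differed between in vitro (0.66) and slice 3 weeks by 1.39 (adjusted p = 0.0060, edgeR). Lcp1 was 0.72 above adult in vitro and at -0.48 in slice 3 weeks, a difference of 1.19 (adjusted p = 4.4e-04, edgeR). Of these effects against adult, those of Coro1a and Pfn1 in slice 1 day and of Lcp1 in vitro were called, and the others were not. The neutrophil-rich cells of slice 1 day carried more Coro1a and Pfn1 than the other cells of their libraries. Without them and the cells with Ccr2 and Plac8, the Coro1a difference between slice 3 weeks and slice 1 day was -0.96 (adjusted p = 0.0045, edgeR) and that of Pfn1 -2.53. The part of neutrophil RNA outside those cells was not tested.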

How the results depend on the processing

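With 2 libraries a group, and as few as 61 cells in a library, depth and number limit the smaller changes. Vim and Crip1 kept their direction and call against adult under every alternative run.

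With UMIs per cell in place of depth scaling, which moves the median of all genes to between 1.05 and 2.04 against adult on the log2 scale, 10338 genes were called in vitro against adult, 5512 in slice 1 week, 7136 in slice 3 weeks and 7076 in vitro against slice 3 weeks, where 9 members and 107 cytoskeleton genes passed. In vitro against adult the split was then 9767 higher and 571 lower, against 2719 and 3461, and in slice 3 weeks against slice 1 day it was 328 and 2067, against 1689 and 1557, and in vitro against slice 3 weeks 6402 and 674, against 1611 and 2423. Of the calls against adult in the slice groups, 95.1% to 97.0% were then higher, against 49.5% to 52.5%. Library size alone gave 2017 higher and 4718 lower in vitro against adult, with a median of -0.42, 1518 and 2507 in slice 1 week, 1705 and 3059 in slice 3 weeks, and 414 and 63 in the cell cycle comparison, against 284 and 131. Without a filter, 8 members passed in vitro against slice 3 weeks, where 2196 of 18226 genes were called higher and 2537 lower. In the cell cycle comparison 946 genes passed without a filter, and 713 with a limit of 3 cycling UMIs. Thinned cells gave 1627 genes in slice 1 week against adult and 2156 in slice 3 weeks against slice 1 day. Without cells with a cycling UMI, 3539 and 1722 genes were called for slice 1 day and slice 1 week, and 1776 between slice 1 day and slice 3 weeks. That setting kept 102 of 1014 cells in slice 1 day replicate 2 and 20 of 61 in slice 1 week replicate 2. With only the 2 groups compared, 4 members fell from slice 1 day to slice 3 weeks, where 1038 of 11241 genes were called higher and 1158 lower.

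Leaving out 1 library gave, for members, 4 to 8 calls in vitro against slice 3 weeks and 3 to 8 in slice 3 weeks against slice 1 day. It gave 3 without slice_1d replicate 2 or slice_3wks replicate 2 and 4 without slice_1d replicate 1. The calls of Tmsb10, Tmsb4x and Actb were lost without each of these 3 libraries, though all values stayed below 0 (Tmsb10 -1.20 to -1.06, Tmsb4x -0.97 to -0.45, Actb -0.96 to -0.38). That of Cfl1 was lost without slice_1d replicate 2 or slice_3wks replicate 2 (-1.09 to -0.58). For cytoskeleton genes it gave 25 to 70 in slice 3 weeks against slice 1 day and 47 to 66 in slice 1 week against adult (47 without replicate 1 of slice 1 week, the library rich in neutrophil RNA). For all genes it gave 2451 to 4768 in vitro against slice 3 weeks, 1440 to 4269 in slice 3 weeks against slice 1 day and 1446 to 2987 in slice 1 week against adult. Leaving out 1 group gave 0 to 1 member in the cell cycle comparison. The cause was not tested.

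Directions reversed only for differences that were not called in the report. Lcp1 in slice 1 week against adult was 0.0177 with DESeq2 size factors, 1.18 per cell, 0.0375 with the DESeq2 test, 0.0296 without the 5% deepest cells, 0.153 without cycling UMIs, 0.0300 with only the 2 groups, and -0.273 to 0.125 with 1 library left out. In slice 1 day it was -0.0308 with library size alone and -0.22 without neutrophil-rich cells, and in slice 3 weeks 0.65 per cell. Coro1a against adult was 1.90 in vitro and 0.84 in slice 3 weeks per cell, and -0.531 to 0.0596 in slice 3 weeks with 1 library left out. In vitro against slice 3 weeks it was -0.0934 with library size alone and -0.180 to 0.412 with 1 library left out. In slice 3 weeks against adult, Pfn1 was 0.52 per cell and Actb -0.0255 to 0.558 with 1 library left out. Crip1 between slice 1 day and slice 3 weeks was -0.318 per cell, -0.0553 without the 5% deepest cells, -0.0298 thinned and -0.514 without cycling UMIs. In the cell cycle comparison, Pfn1 was 0.0670 with library size alone and 0.0831 in unthinned cells. Without a filter, Tmsb4x was -0.0276, Cfl1 -0.102 and Coro1a -0.0665, and Coro1a was -0.131 unthinned and -0.00381 with a limit of 3 UMIs. With 1 group left out, the cell cycle difference ran from -0.00229 to 0.138 for Tmsb4x, -0.0635 to 0.0783 for Cfl1, -0.105 to 0.0165 for Pfn1, -0.307 to 0.0116 for Lcp1, -0.0763 to 0.203 for Coro1a and -0.0987 to 0.348 for Crip1.

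The replicate numbers were not shown to pair libraries: deviations of same-numbered libraries correlated at -0.11 to 0.09 over 10 pairs of groups. With a replicate block, the members called against adult were 7 in vitro, 8 in slice 1 day, 8 in slice 1 week and 5 in slice 3 weeks. Of all 12157 genes, 2684 were then called higher and 3398 lower in vitro, and 2987 and 2993 in slice 1 day. In slice 1 week these were 1775 and 1589, and in slice 3 weeks 2094 and 2062. For in vitro over slice 3 weeks 5 members were called, with 1578 genes higher and 2313 lower. From slice 1 day to slice 3 weeks 6 members were called, with 1574 genes higher and 1522 lower, and Actb was lost (adjusted p = 0.065, edgeR). Leaving out cells with markers of other types could be run only for slice 3 weeks against adult (4 members), since it left too few cells in the other groups. In that fit, 1786 of 10727 genes were called higher and 1489 lower. There Tmsb4x lost its call (0.86, adjusted p = 0.061, edgeR) and Tmsb10 gained one (0.93, adjusted p = 0.0074, edgeR).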
